A study of Rattus norvegicus with 20 samples.

Results

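The microRNAs (miRNAs) miR-204-5p and miR-211-5p belong to one family and share their seed. They were followed in rat kidney by taking the array rows named rno-miR-204-5p and rno-miR-211-5p, 2 of the 719 rat miRNAs on the array. The kidneys came from male Wistar rats weighing 80 to 100 g. Of the 4 groups, 3 received aristolochic acid I (AAI), a nephrotoxic plant acid, intraperitoneally at 40 mg per kg, and their kidneys were taken on day 2, day 4 or day 6. The fourth group received the vehicle, PEG400 mixed with water, on the same schedule, and these kidneys were taken on day 6, so every AAI day was set against vehicle kidneys of day 6. Each group had 5 kidneys, with 1 single-colour Agilent array per kidney (20 arrays). Nothing in the labels says whether the 5 kidneys of a group came from different rats, so the p-values measure the spread between these kidneys.

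miRNAs are short RNAs that guide silencing complexes to messenger RNAs, mostly by pairing through the seed, bases 2 to 8 from the 5′ end. miR-204 is embedded in Trpm3 and miR-211 in Trpm1, both genes of melastatin-type ion channels. miR-204 is known as an abundant miRNA of epithelia such as the retinal pigment epithelium and kidney tubule, whereas miR-211 is best known from melanocytes. Because the mature RNAs share a seed, they are predicted to recognise the same target sites, and a tissue's level of each shows which gene supplies the shared seed.

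The mature sequences are shown, with the seed in capitals, because the shared seed and the near identity of the 5p strands decide what an array can tell apart. They are RefSeq's, on build GRCr8, and all 4 strands were matched by name.

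miR-204-5p: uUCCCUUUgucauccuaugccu
miR-211-5p: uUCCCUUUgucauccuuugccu
miR-204-3p: gCUGGGAAggcaaagggacguu
miR-211-3p: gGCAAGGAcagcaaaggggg

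The 5p strands have 22 bases each and differ at 1 of them, A17U, counted from the 5′ end of miR-204-5p. Among the 693 mature rat miRNAs of the table, only miR-204-5p and miR-211-5p carry the seed UCCCUUU. The opposite strands, miR-204-3p and miR-211-3p, have different seeds, and their longest shared run is 8 bases. miR-204-5p lies at chr1:229743493-229743514 and miR-211-5p at chr1:127189353-127189374, both on the plus strand of GRCr8. The gene Mir204 lies inside the span of Trpm3 and Mir211 inside that of Trpm1. The tables used do not say whether these places are exonic or intronic.

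The probes that read the members are printed 5′ to 3′, with the base opposite position 17 in capitals, because that base alone separates the 2 sets. The array had 2 probes for miR-204-5p and 3 for miR-211-5p.

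miR-204-5p, 20 bases: aggcaTaggatgacaaaggg
miR-204-5p, 19 bases: aggcaTaggatgacaaagg
miR-211-5p, 21 bases: aggcaAaggatgacaaaggga
miR-211-5p, 20 bases: aggcaAaggatgacaaaggg
miR-211-5p, 19 bases: aggcaAaggatgacaaagg

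Each of these 5 probes is complementary to its own miRNA over its full length, counted from base 22 backwards, and has 1 mismatch with the other member, at base 6 of the probe. No further mature miRNA of the table matched any of them with 2 mismatches or fewer. On build rn4, which the scanner files use, the miR-204-5p probe of 20 bases maps to chr1:226013028-226013047 and the miR-211-5p probe of 21 bases to chr1:118642425-118642445.

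rno-miR-204-5p was detected on 20 of 20 arrays and rno-miR-211-5p on 0 of 20, by the scanner software's own detection flag. All 400 miR-204-5p spots (20 per array) were well above background. For miR-211-5p this held for 1 of 400 spots. On single arrays the mean spot signal of the miR-204-5p probes lay between 16.3 and 60.4 scanner units. The mean spot signal of the miR-211-5p probes lay between 0.653 and 6.15, while the 95th percentile of the array's own 434 negative-control spots was 3.01 to 5.40. At least 1 of the 3 miR-211-5p probes exceeded that percentile on 8 arrays, and all 3 exceeded it together on 0 arrays. This held in vehicle and AAI kidneys alike: none of the 5 arrays of any group was flagged as detecting miR-211-5p.

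**Figure D1:**
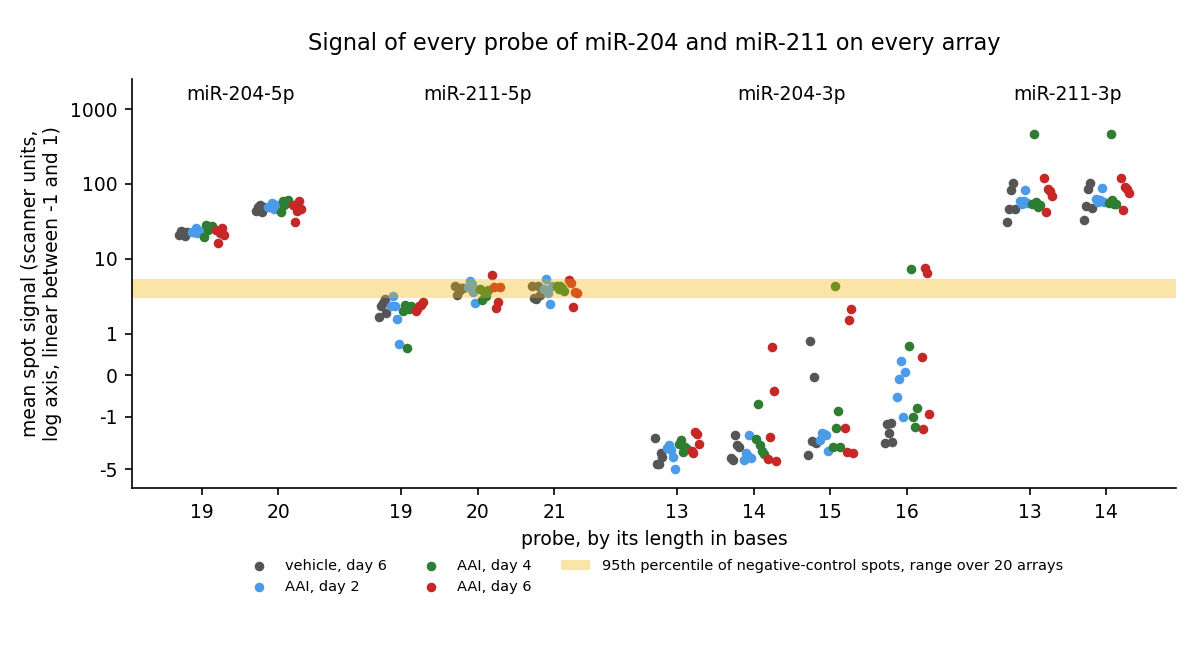
Mean spot signal of each probe (x axis, probe length in bases) of the 4 mature strands on each of the 20 arrays, in scanner units on an axis that is logarithmic above 1 and below -1 and linear between; colours mark the 4 groups, and the band spans the 95th percentile of negative-control spots over the arrays (3.01 to 5.40). The miR-204-5p and miR-211-3p probes lie above the band on every array, and most miR-211-5p and miR-204-3p values lie inside or below it.

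The summed signal of the 3 miR-211-5p probes was 8.62 to 11.3 in vehicle kidneys, with a median of 9.26. It was 7.63 to 13.6 on day 2, 8.61 to 10.3 on day 4 and 6.88 to 13.3 on day 6, with medians of 10.5, 9.40 and 10.3. The 4 groups overlapped throughout. Since no array was flagged as detecting it, miR-211-5p entered no main test, and no fold change is given. When all 719 miRNAs were put into the limma fit without a filter on detection, its lowest Benjamini-Hochberg adjusted p over the 6 comparisons was 0.539. A level below the detection limit of the array would not be seen in these values.

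The opposite strands showed the reverse detection. miR-204-3p was detected on 0 of 20 arrays, with 1 of 400 spots well above background. miR-211-3p, the strand processed from the same hairpin as the undetected miR-211-5p, was detected on 20 of 20 arrays with all 400 spots well above background. Its probes are the following, shown because they are short and pair only with the 3′ part of the miRNA.

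miR-211-3p, 14 bases: ccccctttgctgtc
miR-211-3p, 13 bases: ccccctttgctgt

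The 13-base probe covers bases 8 to 20 of miR-211-3p and the 14-base probe bases 7 to 20. Neither matched another mature miRNA of the table with 2 mismatches or fewer. Which RNA the signal of these probes came from was not tested.

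miR-204-5p is given on each array as its signal, the sum of its probe means. Its level is the log2 of that signal divided by the 75th percentile signal of the array, so a difference of 1 is a doubling relative to that percentile. In vehicle kidneys the level was -2.26, -2.29, -2.59, -2.49 and -2.34, a mean of -2.39 ± 0.14 (SD, n = 5). On day 2 of AAI it was -2.46, -2.56, -2.85, -2.47 and -2.63, a mean of -2.59 ± 0.16 (SD, n = 5). On day 4 it was -2.58, -2.68, -2.70, -2.40 and -2.51, a mean of -2.58 ± 0.12 (SD, n = 5). The vehicle range overlapped with that of both days. On day 6 it was -2.81, -2.71, -3.02, -2.62 and -2.90, a mean of -2.81 ± 0.16 (SD, n = 5). All 5 day 6 kidneys lay below all 5 vehicle kidneys, the nearest pair being -2.62 and -2.59, so the gap between the groups was small beside the spread within them.

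**Figure D2:**
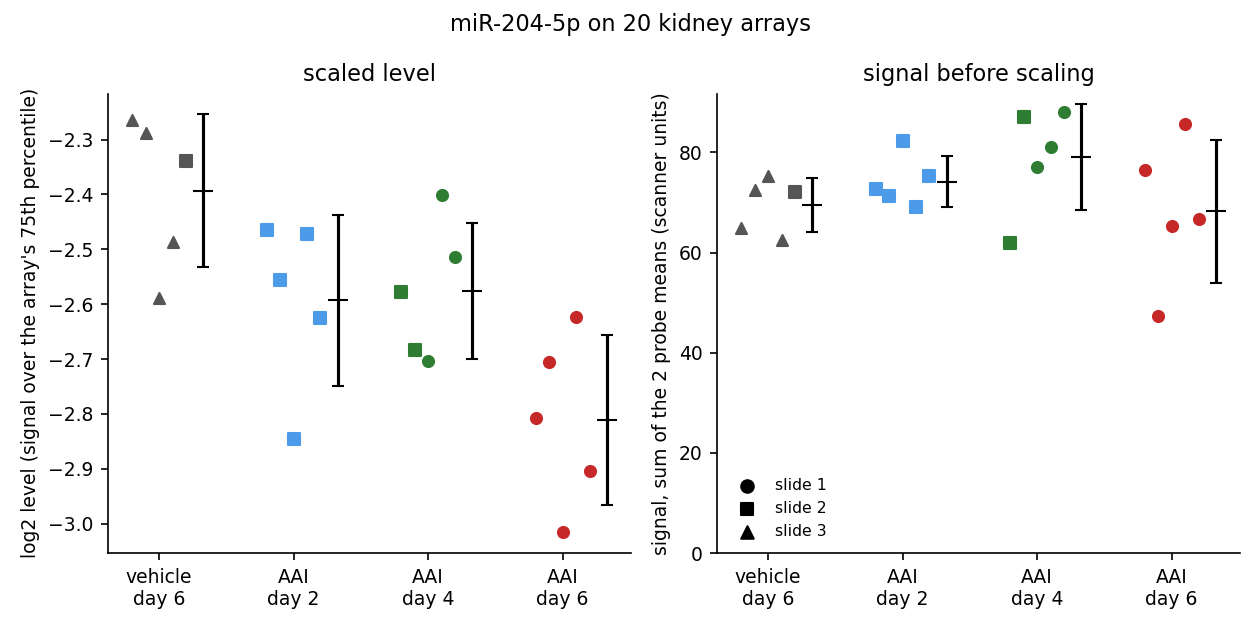
miR-204-5p on the 20 arrays, as the scaled log2 level (left) and as the signal before scaling in scanner units (right). Points are single kidneys with the slide as symbol shape, and crosses with bars are the mean and SD of 5 kidneys. On the scaled level the day 6 kidneys (-3.02 to -2.62) lie below the vehicle kidneys (-2.59 to -2.26), whereas the unscaled signals of the same groups overlap (47.4 to 85.6 and 62.5 to 75.2).

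Day 6 is the only AAI day with vehicle kidneys taken at the same time. miR-204-5p fell by 0.42 ± 0.096 (SE) on the log2 scale, with a 95% interval of -0.62 to -0.22 and a limma adjusted p of 0.00365. This is a 1.34-fold lower level, with an interval of 1.16 to 1.54. Over the 262 tested miRNAs 26% were called at day 6 in either direction, 18.7% were called lower, and 23.3% had groups that did not overlap, so a call or a separation was common on these arrays. Of the 262 changes, 26 were lower than that of miR-204-5p and 235 were higher. Both probes gave nearly the same value: the 20-base probe alone fell by 0.43 (adjusted p = 0.00240) and the 19-base probe by 0.39 (adjusted p = 0.00480) in a limma fit over 605 probes.

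The day 6 call depended on how arrays were scaled. The unscaled signal was 64.9, 72.5, 75.2, 62.5 and 72.1 units in vehicle kidneys and 76.5, 47.4, 65.2, 85.6 and 66.6 on day 6. The vehicle values lie within the day 6 range. The means were 69.5 ± 5.44 and 68.3 ± 14.3 (SD, n = 5), and the difference without scaling was -0.048 ± 0.14 (SE, adjusted p = 0.816 in limma). The 75th percentile signal used for scaling was 312 to 452 in vehicle kidneys and 309 to 535 on day 6. Scaling to the labelling spike-ins gave -0.16 (adjusted p = 0.564), and the scanner software's total signal gave -0.20 (adjusted p = 0.372). Normexp background correction gave -0.21 (adjusted p = 0.450). That correction adds 50 units to each spot, which is of the same size as the probe signals themselves (16.3 to 60.4). Scaling to the median of the miRNAs detected on all arrays gave -0.38 (adjusted p = 0.0960). The sign stayed negative under each of these settings.

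The median change of all 262 tested miRNAs at day 6 was -0.11 after the main scaling, 0.26 without scaling and 0.14 with spike-in scaling. Relative to that median, miR-204-5p was lower by the same amount in the 3 cases, since a scaling factor moves every miRNA of an array together: its change minus the median was -0.31. Its change was thus below that of the median tested miRNA, and whether its amount per unit of total RNA changed cannot be told from these values.

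Group and slide overlapped across the 3 slides. All 5 day 6 arrays were on slide 1, together with 3 of day 4. The vehicle arrays were on slide 3, apart from 1 on slide 2, which carried it beside the 5 day 2 arrays and the other 2 of day 4. No slide held both vehicle and day 6, so these could not be compared within one. Slide 3 held only vehicle arrays, so a fixed slide block leaves 1 vehicle array, on slide 2, to compare with the other groups. With that block the day 6 change was -0.56, and without AAI day 4 array 2 it was -0.51. Both are given with no test, since the vehicle spread is not measured in that comparison. With slide as a random block the day 6 change was -0.47 (adjusted p = 0.0287 in limma).

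**Figure D3:**
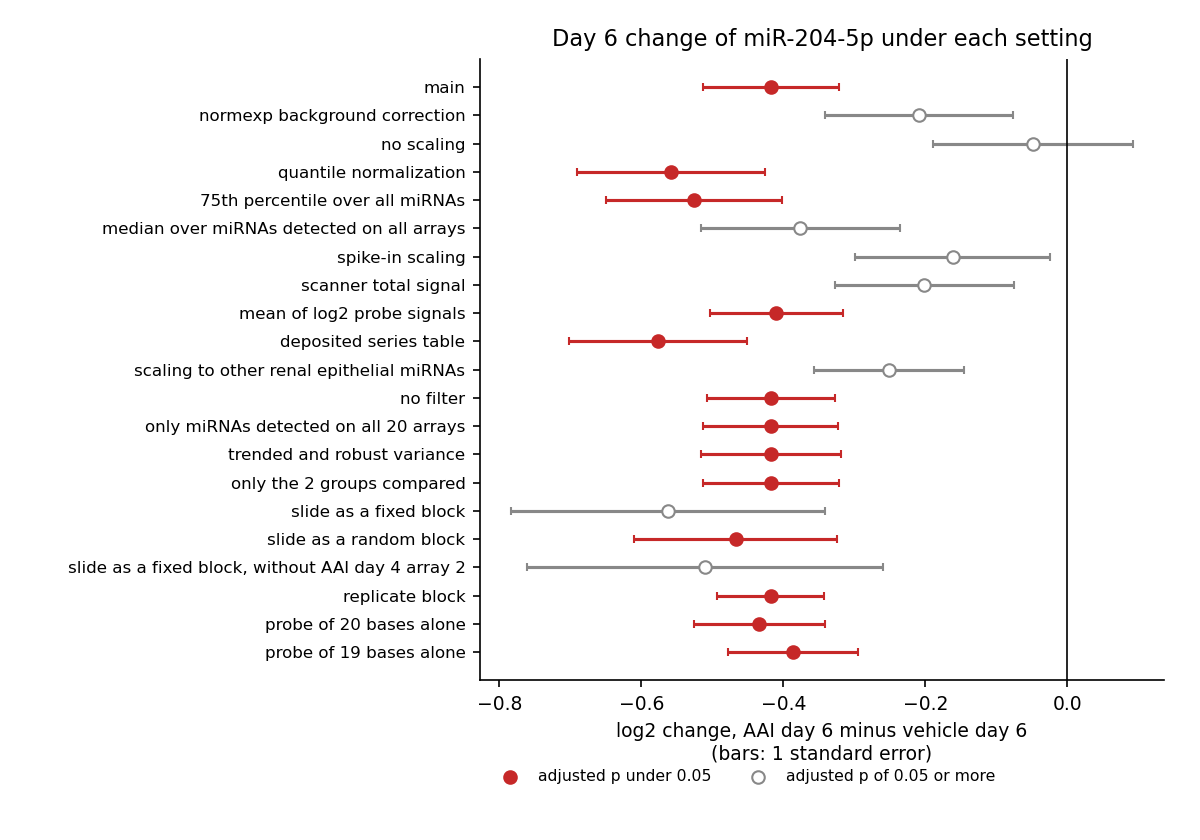
Change of miR-204-5p from vehicle to AAI day 6 on the log2 scale (x axis) under the main setting and each alternative that keeps the groups whole or removes AAI day 4 array 2 (y axis). Points are fitted values, bars 1 standard error, and filled points have a limma adjusted p under 0.05. With slide as a fixed block the vehicle side rests on 1 array, so bar and fill are not read there. All values are below 0, from -0.58 with the deposited table to -0.048 without scaling.

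At the earlier days no comparison passed the test. On day 2 the change from vehicle was -0.20 ± 0.096 (SE), with a 95% interval of -0.40 to 0.0013 and a limma adjusted p of 0.427. It was 0.095 without scaling and 0.059 with spike-in scaling, so its direction was not settled. Of the 262 tested miRNAs 1.53% were called on day 2. On day 4 the change was -0.18, with an interval of -0.38 to 0.018 and an adjusted p of 0.269, against 3.44% called, and without scaling it was 0.18. Within slide 2, where 1 vehicle array stood against 5 of day 2 and 2 of day 4, the differences from that array were -0.25 and -0.29. They are given with no test, since the vehicle spread is not measured on that slide. The intervals of day 2 and day 4 overlap with that of day 6.

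From AAI day 2 to day 6 miR-204-5p changed by -0.22, with an interval of -0.42 to -0.018 and a limma adjusted p of 0.155, where 11.1% of miRNAs were called. From day 4 to day 6 the change was -0.23, with an interval of -0.44 to -0.034 and an adjusted p of 0.318, where 0.763% were called. Within slide 1, which held 3 kidneys of day 4 and 5 of day 6, it was -0.27 ± 0.12 (SE, adjusted p = 0.241). From day 2 to day 4 it was 0.017 (interval -0.18 to 0.22, adjusted p = 0.999, with 0% of miRNAs called), a value that turned negative under several settings. In descending order the group means were vehicle, day 4, day 2 and day 6. No neighbours in that order differed by the adjusted test, and of the 6 pairs only vehicle and day 6 did.

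The spread between unflagged spots of a probe shows the technical error within an array, not that between arrays. Within an array the spots of the 20-base miR-204-5p probe varied with a coefficient of variation of 2.33% to 9.51% (median 5.29%), and those of the 19-base probe with 4.71% to 15.2% (median 8.79%). Between kidneys of a group the unscaled signal had an SD of 5.09 units on day 2, 5.44 in vehicle, 10.6 on day 4 and 14.3 on day 6, around means of 68.3 to 79.0.

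miR-204-5p was set beside 23 miRNAs of renal epithelium, a list written with earlier results of these data known. It holds the miR-192, miR-194 and miR-215 group of the proximal tubule, the miR-30 and miR-200 families, miR-196, miR-10 and the members themselves. Of these 21 were tested, and miR-215 and miR-211-5p were detected on no array. On day 2 and day 4, 0 of 21 were called (1.53% and 3.44% of all tested miRNAs were). The changes of the 21 ranged from -0.26 to 0.074 on day 2 and from -0.25 to 0.34 on day 4. On day 6, 7 of 21 (33.3%) were lower, 0 were higher and 14 were not called, against 18.7% called lower and 26% called in either direction among all tested. The list's median change was -0.15, and that of all tested miRNAs was -0.11.

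The 7 that fell at day 6 were led by miR-192-3p (-0.81, adjusted p = 0.000618 in limma), miR-194-5p (-0.63, adjusted p = 0.00226) and miR-192-5p (-0.56, adjusted p = 0.00445). These are products of the miR-192 and miR-194 hairpins, which lie next to each other in clusters and are abundant in proximal tubule. miR-204-5p came next, at rank 4 of 21. It was followed by miR-196b-5p (-0.33, adjusted p = 0.00568) and miR-196a-5p (-0.31, adjusted p = 0.00759), which come from Hox gene clusters, and by miR-30e-3p (-0.31, adjusted p = 0.0171). Without scaling, these last 3 turned to 0.040, 0.055 and 0.056. None of the 5 tested miR-30 5p strands was called: they ranged from -0.21 for miR-30e-5p (adjusted p = 0.215) and -0.18 for miR-30c-5p (adjusted p = 0.130) to -0.028 for miR-30d-5p. Of the miR-200 family, which marks epithelial identity, miR-200b-3p was at -0.23 (adjusted p = 0.102), miR-429 at -0.15 and miR-141-3p at 0.15.

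**Figure D4:**
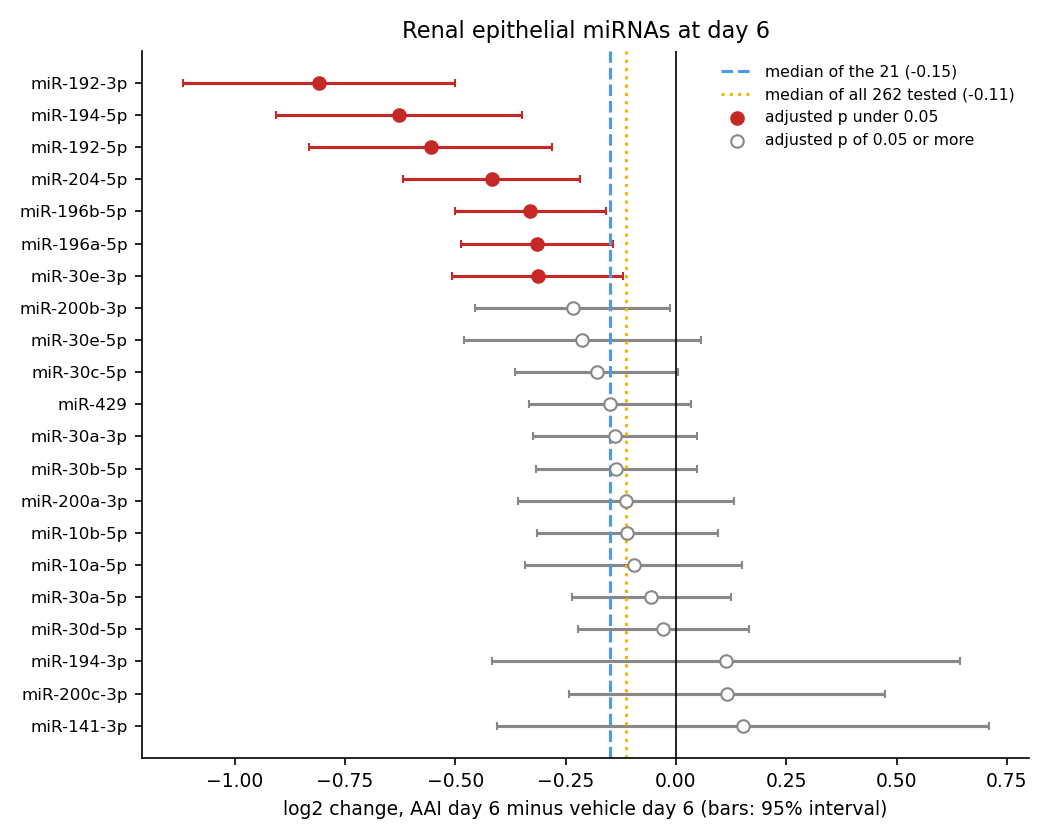
Change from vehicle to AAI day 6 of the 21 tested renal epithelial miRNAs, as fitted log2 values with 95% intervals, filled where the limma adjusted p was under 0.05. miR-204-5p (-0.42) has rank 4 from the lowest, and the dashed and dotted lines mark the median of the list (-0.15) and of all 262 tested miRNAs (-0.11).

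The count of 7 called by limma was 0 without scaling, with spike-in scaling and with the scanner's total signal. Of all 262 tested miRNAs, 34, 22 and 23 were called under these settings, against 68 under the main one. The count called in the list was 2 with scaling to the median and 4 after normexp correction. Of all 262 tested miRNAs, 27 and 24 were then called. Counts with slide as a fixed block are not given, since the vehicle side then rests on 1 array. When arrays were scaled to the median of the 19 other list members detected on all arrays, an alternative chosen after seeing the data, miR-204-5p changed by -0.25 ± 0.11 (SE, adjusted p = 0.106 in limma). Its fall relative to other renal epithelial miRNAs therefore did not pass the test. The remaining list members called at day 6 kept their call under that scaling, with limma adjusted p from 0.00497 (miR-196b-5p) to 0.0343 (miR-30e-3p). Of all 262 tested miRNAs, 64 were then called. In whole kidney, fewer tubule cells and less miR-204-5p per cell cannot be told apart.

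The tissue label was checked with 6 renal epithelial marker miRNAs, all detected on all 20 arrays. In total 231 of the 719 miRNAs were detected on all arrays, so this detection does not single out renal epithelium. Some markers of other cells differed between vehicle and day 6 too. The red cell miRNA miR-451-5p fell by 2.73 ± 0.34 (SE) on the log2 scale on day 6 (adjusted p = 1.6e-05 in limma). The summed log2 level of the 2 red cell markers was -1.30 to 0.42 in vehicle kidneys and -4.25 to -2.31 on day 6. That of the 5 leukocyte markers on the array was 1.74 to 1.78 in vehicle and 1.18 to 1.63 on day 6, and 1 of 5 was called, lower. Of 5 stromal and smooth muscle markers 1 was called lower. Of 2 endothelial markers 0 were called, with day 6 changes of -0.21 and -0.13. The leukocyte and stromal shares, 20% each, were near those of all 262 tested miRNAs (26% called, 18.7% called lower). Of 10 markers of liver, muscle, brain and pancreas 3 were tested and 0 were called, with day 6 changes from -0.21 to 0.36. These 3, miR-133b-3p, miR-9a-5p and miR-375-3p, were detected on all 20 arrays, whereas miR-1-3p and miR-216a-5p were detected on no array. The part of these other cells in the miR-204-5p result was not tested.

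The tested miRNAs whose level followed miR-204-5p most closely over the 20 arrays were miR-194-5p (Pearson r = 0.933), miR-342-3p (0.931), miR-192-5p (0.926), miR-185-5p (0.912) and miR-192-3p (0.904). These are descriptions over 20 arrays that share the scaling and the group differences. After the group means were removed, r was 0.855, 0.859, 0.846, 0.804 and 0.793. On the unscaled signals it was 0.831, 0.888, 0.899, 0.828 and 0.825. The nearest neighbours of miR-204-5p thus included 3 strands of the miR-192 and miR-194 hairpins, which fell with it on day 6. miR-342-3p and miR-185-5p, which are not on the renal epithelial list, fell by 0.65 (adjusted p = 0.000585) and 0.69 (adjusted p = 0.000303) on day 6 in limma.

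The miR-211-3p probes were the only miR-211 probes flagged as detected. The level they gave was -2.29, -1.88, -1.41, -0.78 and -1.95 in vehicle kidneys and -1.72, -1.91, -2.29, -1.15 and -2.03 on day 2. On day 4 it was -1.74, 0.73, -2.10, -2.06 and -2.26, and on day 6 -1.15, -1.84, -1.57, -1.69 and -1.78. All groups overlapped, and the changes from vehicle were -0.16, 0.18 and 0.055 on days 2, 4 and 6, each with an SE of 0.44 and limma adjusted p of 0.915, 0.865 and 0.941. The interval at day 6, from -0.87 to 0.98, includes changes larger than that of miR-204-5p. Blocking on slide as a fixed term gave far larger changes on days 4 and 6, 1.45 and 1.98. These leave 1 vehicle array in the comparison and are given with no test. The day 6 value was 0.76 with slide as a random block (adjusted p = 0.372). The day 4 kidney at 0.73 had a signal of 927 units where the remaining day 4 kidneys had 103 to 117, and 328 detected miRNAs against at most 308 on any other array. Without it the day 4 change was -0.38 (adjusted p = 0.452 in limma), and the fixed slide block then gave 0.21 on day 4 and 0.75 on day 6. For miR-204-5p the same array was ordinary, at -2.68 in a group that ranged from -2.70 to -2.40. Leaving it out of the fit left the day 6 change of miR-204-5p at -0.42 (adjusted p = 0.00253).

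The signal of the miR-211-3p probes ran almost in parallel with that of several 3p strands from other hairpins, which are named here after their values were seen. Over the 20 arrays its level correlated with miR-770-3p (Pearson r = 0.984), miR-99b-3p (0.983), miR-3593-3p (0.979), miR-139-3p (0.976) and miR-370-3p (0.972), as a description of arrays that share the scaling. After the group means were removed, these values were 0.990, 0.983, 0.980, 0.989 and 0.974. Without AAI day 4 array 2 they were 0.951, 0.948, 0.948, 0.941 and 0.929 over 19 arrays. A level of these probes is therefore given as a probe signal, and whether it follows the amount of miR-211-3p was not tested.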

How the data were processed

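RNA of 20 rat kidneys was labelled with Cy3 and hybridised to Agilent miRNA arrays, per the labels' protocols. The scanner software was Agilent Feature Extraction 10.7.1.1, per the file headers. Its deposited spot intensity is background-subtracted and unscaled between arrays, and detection and outliers are deposited as other values (flags of 0 or 1). A deposited table of the whole series has log2 values in 740 rows. How it was scaled is not given in the sources used here, so it served as an alternative.

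Unflagged spots were averaged per probe and probe means summed per miRNA. The sum was divided by the array's 75th percentile over the 231 miRNAs detected on all arrays, floored at 0.00640 and log2 transformed. Tests covered the 262 of 719 miRNAs that every array of some group detected. The 4 group means of all 20 arrays entered 1 limma fit (version 3.58.1, in R 4.3.3, with files read by the data.table package of version 1.17.8), with 16 residual and 2.17 prior degrees of freedom. The tests were two-sided with Benjamini-Hochberg adjustment over all tested miRNAs per comparison, and called means an adjusted p under 0.05. The script was tested on simulated data. The number of arrays limits the precision.

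The members and lists were chosen with earlier results of these data known. Named were the members, their opposite strands, the 5 miRNAs that correlated best with miR-204-5p, and tested members of the renal epithelial list. miR-451-5p and the 5 miRNAs closest to miR-211-3p are named as well, chosen after their values were seen. The comparison of miR-204-5p minus miR-211-5p within arrays was not made, because miR-211-5p was detected on no array. Alternatives covered background correction, scaling, probe summary, filter, variance model, slide, replicate number and leaving out each array. The scaling to other renal epithelial miRNAs, each probe alone and the fits without AAI day 4 array 2 for other comparisons and correlations were added after seeing the data.

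Arrays of different groups share replicate numbers. Deviations from the group means of same-numbered arrays correlated at -0.62 to 0.66, above 0.1 in 11 of 30 pairs. The main fit therefore did not treat the numbers as pairs, though this check cannot exclude a pairing.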

Additional observations from a re-analysis of the deposited data

Results flagged for a closer look

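miR-211-3p on AAI day 4 array 2 was at 0.73 on the log2 scale, and the next highest array of that group was at -1.74. The gap to the nearest array took up most of the group's range, past Dixon's 95% critical value for 5 samples. This was 1 of 8 groups checked (miR-204-5p and miR-211-3p in 4 groups each), and chance passes that limit in about 1 of 20 groups. The array also had the most detected miRNAs (328). The miR-204-5p level passed the limit in 0 of its 4 groups.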

How the results depend on the processing

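Over 31 alternatives the day 6 fall of miR-204-5p kept its direction, and it lost its call under 8: normexp (-0.21), no scaling (-0.048), scaling to the median (-0.38), spike-in scaling (-0.16), the scanner's total signal (-0.20), scaling to other renal epithelial miRNAs (-0.25), slide as a fixed block (-0.56), and the same block without AAI day 4 array 2 (-0.51). The fixed slide blocks leave 1 vehicle array in the comparison, so their lost calls are not read as a test result. The cause of the lost calls was not tested beyond what the settings change by construction. Leaving out 1 array gave -0.47 to -0.37, with the call kept in every case (adjusted p at most 0.0138 in limma). The replicate block gave -0.42 (adjusted p = 0.00132), and it changed no other call of miR-204-5p. No other comparison of miR-204-5p was called under any alternative. The day 2 change reversed to 0.095 without scaling and 0.059 with spike-in scaling, and the day 4 change to 0.18 without scaling. The change from day 2 to day 4, near 0, reversed with quantile normalization (-0.021), scaling to the median (-0.029), spike-in scaling (-0.061), the deposited table (-0.032), slide as a fixed block (-0.038), slide as a random block (-0.0071) and within slide 2 (-0.038). Leaving out 1 array it was -0.047 to 0.049. Without 1 array the day 2 change was -0.25 to -0.14, the day 4 change -0.23 to -0.15, day 2 to day 6 -0.28 to -0.17, and day 4 to day 6 -0.28 to -0.18.

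For miR-211-3p, never called, day 2 reversed to 0.14 without scaling, 0.10 with spike-in scaling and 0.13 with slide as a fixed block, also without AAI day 4 array 2 or within slide 2. Its day 6 change reversed to -0.024 with normexp and -0.053 with the 75th percentile over all miRNAs, and was 1.98 with slide as a fixed block, 0.76 with slide as a random block and 0.75 with the fixed block without AAI day 4 array 2. Its day 4 change was 1.45 with the fixed block and within slide 2, 0.56 with the random block and 0.21 with the fixed block without that array. Without 1 array it was -0.33 to 0.062 on day 2, -0.38 to 0.40 on day 4 and -0.10 to 0.28 on day 6. Without scaling miR-30e-3p reversed to 0.056, miR-196a-5p to 0.055 and miR-196b-5p to 0.040 on day 6. miR-211-5p was flagged as detected on no array, so its alternatives and those of the within-array difference were not run. No slide held both vehicle and day 6.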
